A study of Oryctolagus cuniculus with 12 samples.

Results

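The basilar artery of the rabbit was compared between day 7 and day 3 after an experimental subarachnoid hemorrhage (SAH), a bleed into the fluid-filled space that surrounds the arteries at the base of the brain. The comparison takes 6 of the 12 arrays of the series: the 3 whose source names say day 7 and the 3 whose source names say day 3. Both groups are injured arteries, so neither is a baseline. The other 6 arrays, 3 of normal arteries (control, called day 0 in the series) and 3 of day 5, are given beside the values and share the estimate of the spread. Each array was hybridised with Cy3-labelled RNA made from total RNA of the artery. The labels give no strain, age, sex or bleed volume for these samples, and nothing in them tells whether a group's 3 samples came from different rabbits, so each p-value rests on sample-to-sample spread that may be technical.

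After SAH, blood around the vessel breaks down over days, and the arterial wall passes through inflammation, cell division in its layers and remodelling of its matrix. Cytokines and chemokines attract leukocytes, acute-phase proteins bind released hemoglobin and lipids, and metalloproteases and their inhibitors set how fast matrix is cut. Smooth muscle cells of the media contract the vessel, endothelial cells line it, and the leptomeninges with their transporters enclose it.

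Of 25605 probes tested, 46 differed between day 7 and day 3 at a Benjamini-Hochberg adjusted p below 0.05 in limma (0.18% of the probes tested), 16 higher (0.0625%) and 30 lower on day 7 (0.117%). The probes are 60 bases long and many overlap, and joining called probes that share 20 or more bases left 27 separate sequences. Of the 46, 33 carry 1 gene each, 19 genes in all, and 13 carry none. Sequences are shown for called probes, because the array's probes, not whole transcripts, are what was measured, and because sets of overlapping probes show which calls repeat the same stretch of RNA. Capitals mark the bases shared by the called probes of 1 overlapping set, and a called probe that overlaps no other is in lower case throughout. The third called CXCL8 probe lies outside the printed pair and is not shown.
CCK: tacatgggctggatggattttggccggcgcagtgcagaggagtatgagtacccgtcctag
CXCL8, probe 1: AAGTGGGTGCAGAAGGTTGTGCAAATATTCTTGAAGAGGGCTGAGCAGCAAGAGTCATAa
CXCL8, probe 2: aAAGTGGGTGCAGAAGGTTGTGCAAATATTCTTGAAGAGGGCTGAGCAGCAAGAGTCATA
MMP9: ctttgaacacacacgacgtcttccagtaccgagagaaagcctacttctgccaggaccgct
TIMP1: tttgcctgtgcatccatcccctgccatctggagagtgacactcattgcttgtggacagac
CDC20: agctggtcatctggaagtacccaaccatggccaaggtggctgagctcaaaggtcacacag
BUB1B: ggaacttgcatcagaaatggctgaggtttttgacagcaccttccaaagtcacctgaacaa
ESM1, first of 5: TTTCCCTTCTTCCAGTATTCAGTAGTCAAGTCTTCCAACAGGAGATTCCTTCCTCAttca
ESM1, last of 5: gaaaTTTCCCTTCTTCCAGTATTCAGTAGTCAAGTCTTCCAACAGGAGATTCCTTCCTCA
no gene, chromosome 2, first of 5: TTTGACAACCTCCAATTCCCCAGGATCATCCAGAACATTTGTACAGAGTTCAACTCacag
no gene, chromosome 2, last of 5: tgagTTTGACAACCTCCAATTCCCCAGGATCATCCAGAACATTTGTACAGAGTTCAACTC
described as bmp7: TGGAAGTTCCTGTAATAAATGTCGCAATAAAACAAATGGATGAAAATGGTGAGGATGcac
The 2 overlapping CXCL8 probes share 59 bases, the 5 ESM1 probes 56, the 5 probes without a gene 56 and the 4 probes described as bmp7 57, so each set is 1 measurement repeated. On the array's own map, whose genome build it does not name, the CCK probe lies at chr9:1942964-1943020 on the plus strand, the TIMP1 probe at chrX:32658284-32658343 on the plus strand, the first ESM1 probe at chr11:70962822-70962881 on the minus strand and the first probe without a gene at chr2:149510155-149510220 on the minus strand. The CCK, TIMP1 and ESM1 probes match mRNA records, so they are exonic as the array gives them, and the chromosome 2 probes carry no annotation there.

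The arrays of the compared groups were close in quality. The 75th percentile of the signal, to which each array was scaled, was 169, 191 and 182 units on day 3 and 161, 127 and 145 units on day 7, so every day 3 array was brighter than every day 7 array before scaling. The share of spots well above background was 58.2% to 60.8% on day 3 and 59.6% to 63.2% on day 7, and no spot was saturated. Control replicate 2 stood apart, with 50.1% of its spots well above background and 169 outlier spots, against at most 16 on any other array. Each of the 3 slides held 1 array per group, and the replicate number is the slide. A group always took the same place on its slide, so place and group cannot be told apart. Smooth muscle markers were present: all 30 contractile genes of the list that are on the array were measured, and the median level of the list was 2.54 to 2.86 on day 3 and 2.50 to 2.85 on day 7. Neural markers were mostly not measured, 8 of the 20 on the array. All levels here are log2 of the processed signal minus the log2 of the array's 75th percentile, and a change is the difference of such levels, day 7 minus day 3. Over all probes tested, day 3 differed from the controls at 1746 (6.82%), day 5 at 555 (2.17%) and day 7 at 606 (2.37%), and day 5 from day 3 at 3 (0.0117%); these comparisons share arrays. In these whole-artery samples fewer cells of a type and less RNA per cell cannot be told apart.

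Read at 1 probe per gene, the one with the highest mean, 8 of 7123 genes were called (0.112%): CCK, MMP9, TIMP1, CDC20, BUB1B, ESM1 and CD1D were lower on day 7 (7 genes, 0.0983%) and LRRC17 was higher (1 gene, 0.014%). The median change of all genes was 0.03, and 3294 genes lay below 0 (46.2%). Before adjustment, 343 genes had p below 0.05 in the higher direction (4.82%) and 505 in the lower (7.09%). The calls of most genes stand close to the threshold: the adjusted p was 0.00166 to 0.0151 for CCK, the overlapping CXCL8 probes and 1 probe without a gene on chromosome 12, and 0.0395 to 0.0472 for the rest. The count of called probes also rested on single arrays of any group, since all 12 share the estimate of the spread. It was 4, 72 and 51 without control replicates 1, 2 and 3, and 58, 4 and 3 without day 3 replicates 1, 2 and 3. The count was 4, 4 and 6 without day 5 replicates 1, 2 and 3, 18 without day 7 replicate 1 and 2 without day 7 replicate 2 or 3. With the slide as a block the count was 3. Only the CCK probe and 1 CXCL8 probe kept their call in all 12 fits that leave out 1 array. At all 46 called probes the 3 day 7 arrays did not overlap the 3 day 3 arrays. The same arrays gave the calls, so this adds no support. Over all genes, 10.6% did not overlap in the higher direction and 13.2% in the lower.

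**Figure D1:**
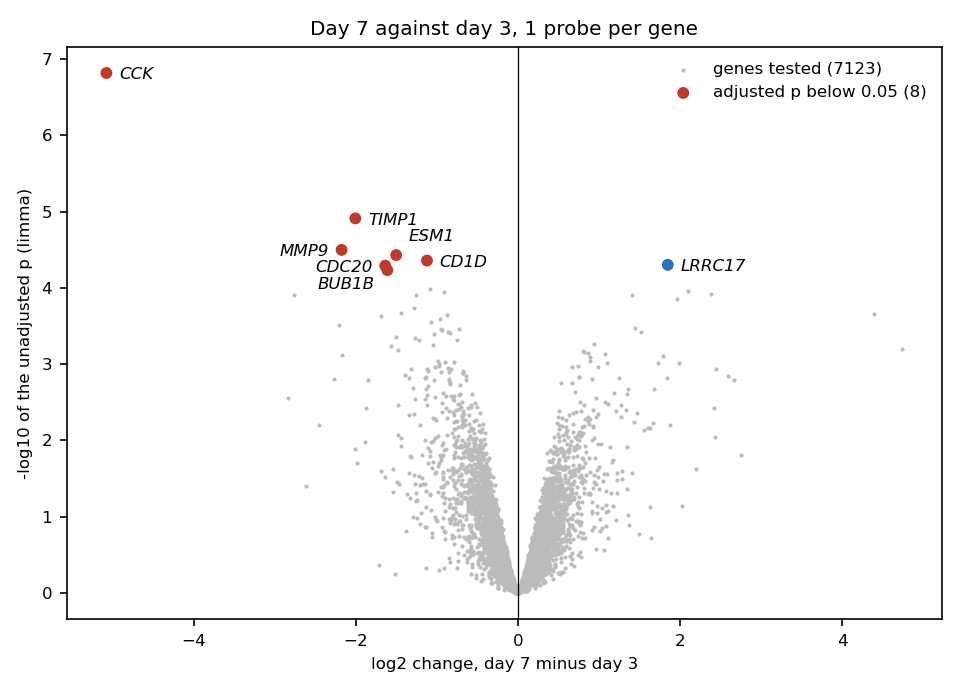
Each point is 1 of 7123 genes, with the log2 change from day 3 to day 7 on the x axis and -log10 of the unadjusted limma p on the y axis. The 7 genes called lower (red) and the 1 called higher (blue) are named, and CCK stands apart from the other genes at a change of -5.08.

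CCK, the precursor of the gut and brain peptide cholecystokinin, had the largest change of any gene between the days. Its level was 0.88, 1.27 and 2.88 on the day 3 arrays and -3.07, -4.04 and -3.10 on the day 7 arrays. Every day 3 array was therefore far above every day 7 array, of which 2 of 3 were well above background. CCK fell by 5.08 (SE 0.45, limma adjusted p = 0.00196), which is 33.7-fold, and by 3.94, 5.31 and 5.98 within slides 1, 2 and 3. The control arrays had a mean of -3.21 ± 0.45 (SD, n = 3) and the day 5 arrays -3.09 ± 0.20 (SD, n = 3), so the high level was seen on day 3 alone among these groups. Against the controls CCK was 4.88 higher on day 3 (limma adjusted p = 0.000131), 0.12 higher on day 5 (adjusted p = 0.949) and 0.19 lower on day 7, a change of -0.19 (adjusted p = 0.858). The call held when the slide was a block (limma adjusted p = 0.00444) and when only the 6 arrays were fitted (adjusted p = 0.0337). The other 7 measured neural markers, the class in which CCK is also listed, held no other call, and of these the secretory granule protein SCG5 was not well above background on day 3 and at least 2.14-fold higher on day 7 (adjusted p = 0.0582). The median level of the list was -1.56 to -2.07 on day 3 and -1.95 to -2.16 on day 7, and its part in the result was not tested.

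A probe without a gene, which the array describes as a corneal cDNA clone and maps to chromosome 12, was also high on day 3 alone. Its level was -2.28, -2.73 and -0.57 on day 3, and on day 7 it was not well above background on any array, with -6.0, -5.77 and -6.32. It was at least 4.42-fold higher on day 3 (limma adjusted p = 0.0151), the bright mean set against the higher of the probe's own signal and the lowest signal well above background on each dim array. The probe is named by its position only. Wherever a bound is given, the adjusted p beside it belongs to the fitted change in signal, not to the bound.

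**Figure D2:**
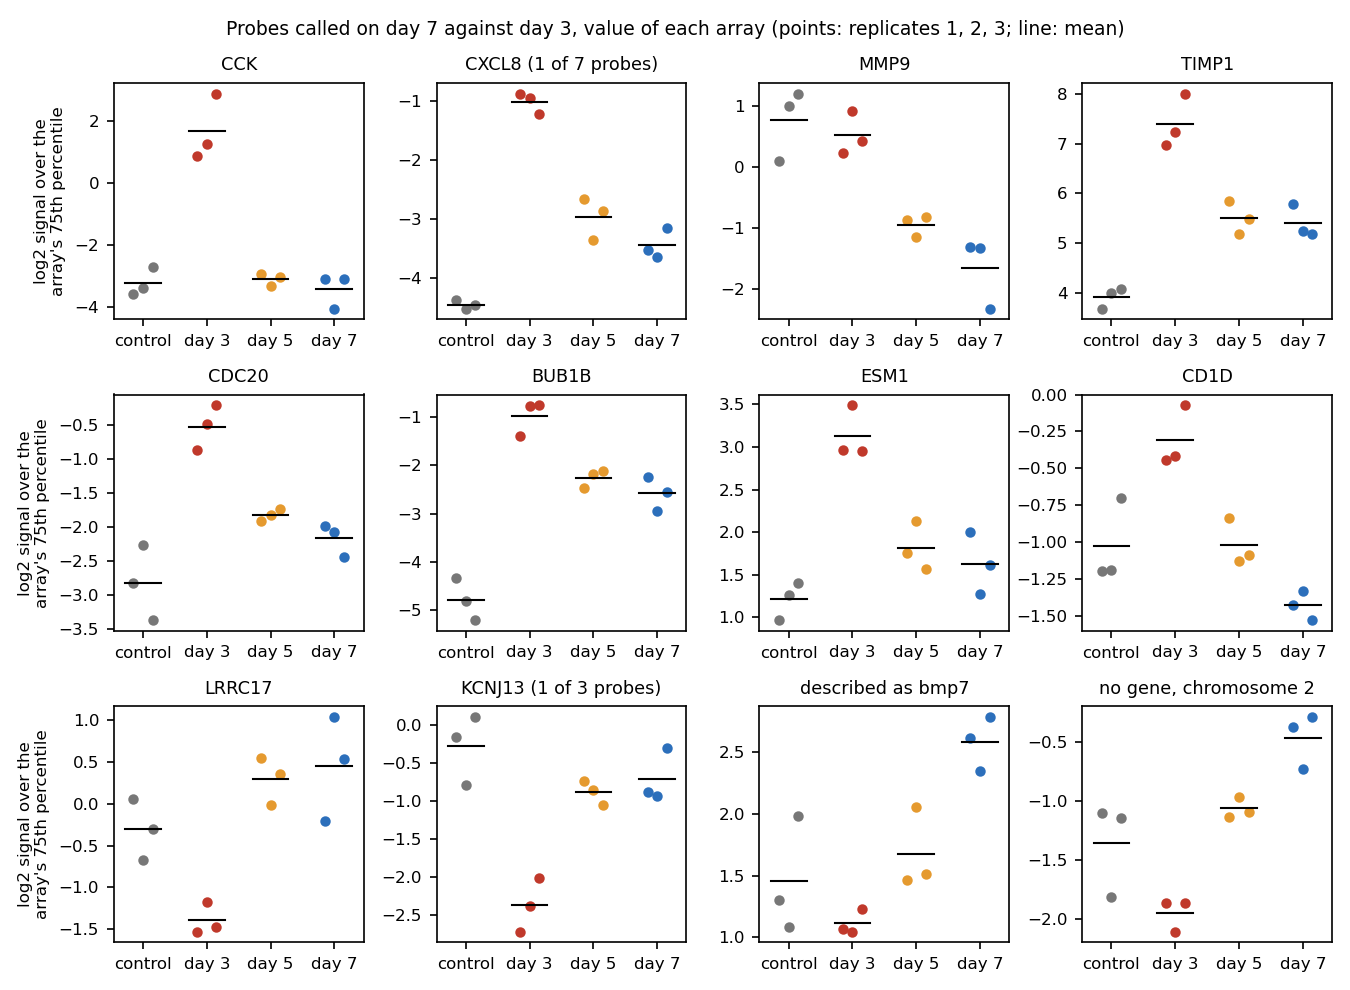
Levels of 12 called probes on each of the 12 arrays (y axis, log2 signal over the array's 75th percentile; x axis, group), with points for replicates 1 to 3 and a line at the mean. CCK is high on day 3 alone, TIMP1 and BUB1B on day 7 lie between day 3 and control, MMP9 on day 7 lies below control, and the last 2 probes are highest on day 7.

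Among the chemokines and cytokines, CXCL8, the interleukin 8 that attracts neutrophils, fell at 3 of its 7 probes. Its signal was not well above background on any control array at the called probes. At the first of the overlapping probes the level was -0.88, -0.96 and -1.23 on day 3 and -3.53, -3.65 and -3.15 on day 7. The groups were well apart, and CXCL8 fell by 2.42 at this probe (SE 0.20, limma adjusted p = 0.00166, 5.35-fold). The day 5 arrays lay at -2.97 ± 0.36 (SD, n = 3), between the days. A separate called probe fell by 2.96 (SE 0.50, adjusted p = 0.0468). The probes of CXCL8 disagree in size: the probe with the highest mean gave a change of -0.64 (SE 0.30, adjusted p = 0.454) and the remaining probes -0.70 to -2.80, all below 0.

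None of the other 15 measured ligands passed the test. The median change of the 16 ligands was -0.67, against 0.03 over all genes. Within slides 1, 2 and 3 the median was -0.86, 0.00 and -0.64. Of the 16, 12 lay below 0 (46.2% of all genes) and 7 had an unadjusted p below 0.05, all lower (7.09% of all genes). IL10, an anti-inflammatory cytokine, lay at -2.90, -2.33 and -1.12 on day 3 and was not well above background on day 7. Its level on day 3 was at least 3.69-fold that on day 7 (adjusted p = 0.0555). IL10 and the chemokine CCL5, both among the 7, passed the filter through day 3 alone, the day on which they were higher. CCL2, which attracts monocytes, had 3.96, 2.40 and 2.99 on day 3 and 1.19, 1.81 and 0.81 on day 7, a change of -1.85 (SE 0.45, adjusted p = 0.175), and its arrays did not overlap. IL6 was at least 2.07-fold higher on day 3 (adjusted p = 0.381), but its arrays overlapped. IL1B had a change of -1.69 (SE 0.66, adjusted p = 0.368), with 0.36 on slide 2 against -2.72 on slides 1 and 3. Of 12 receptors, IL1R2, the decoy receptor that binds interleukin 1 without signalling, had the change farthest from 0, 1.87 (SE 0.56, adjusted p = 0.26), with 0.10 on slide 2.

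Of the acute-phase genes 0 of 6 were called between the days by limma. At an unadjusted p below 0.05, 4 were lower (7.09% of all genes) and 2 higher (4.82% of all genes). Haptoglobin (HP), which binds free hemoglobin, had 6.20, 6.06 and 6.71 on day 3 and 3.96, 3.52 and 4.70 on day 7, a change of -2.26 (SE 0.55, adjusted p = 0.171). SAA3, a serum amyloid A, had 8.5, 8.80 and 9.44 on day 3 and 7.68, 6.85 and 6.57 on day 7, a change of -1.88 (SE 0.52, adjusted p = 0.225). LOC100009168, described as serum amyloid protein A, had a change of -2.17 (adjusted p = 0.134), and ceruloplasmin (CP), the copper carrier of plasma, -0.97 (adjusted p = 0.154). The arrays of all these 4 did not overlap between the days, in the lower direction (13.2% of all genes). The median over the 6 genes against the controls was 4.32 on day 3, 2.65 on day 5 and 2.71 on day 7. CRP and ORM1, the other members, had changes of 0.57 and 0.64.

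The gelatinase MMP9 and the metalloprotease inhibitor TIMP1 both fell. MMP9, which cuts denatured collagen and basement membrane, had 0.22, 0.91 and 0.42 on day 3 and -1.31, -1.33 and -2.32 on day 7. It fell by 2.17 (SE 0.33, limma adjusted p = 0.0407, 4.51-fold), and by 1.53, 2.24 and 2.74 within the slides. Day 7 lay below the normal arteries here: MMP9 was 2.41 below the controls on day 7, a change of -2.41 (adjusted p = 0.00371), against -1.71 on day 5 (adjusted p = 0.0224) and -0.24 on day 3 (adjusted p = 0.738). MMP9 is also a neutrophil marker, and of that list 11 of 13 genes on the array were measured, with a median level of -0.85 to -0.95 on day 3 and -0.67 to -1.45 on day 7; their part in the result was not tested.

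TIMP1 had 6.98, 7.24 and 8.01 on day 3 and 5.78, 5.24 and 5.19 on day 7, with no overlap. It fell by 2.0 (SE 0.28, limma adjusted p = 0.0395, 4.01-fold), and by 1.19, 2.0 and 2.82 within slides 1, 2 and 3. Unlike MMP9 it remained above the controls, by 3.49 on day 3 (adjusted p = 5.95e-05), 1.59 on day 5 (adjusted p = 0.0122) and 1.48 on day 7 (adjusted p = 0.018). The other 17 proteases and inhibitors measured were not called, and the median change of all 19 was -0.17. Neither call held when the slide was a block (limma adjusted p = 0.0721 for both), when only the 6 arrays were fitted (0.0665 and 0.0674) or in most fits that left out 1 array (kept in 3 and 4 of 12).

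Of the genes of mitosis 2 fell at their brightest probe, CDC20 and BUB1B. CDC20, which activates the anaphase-promoting complex, had -0.87, -0.49 and -0.21 on day 3 and -1.98, -2.07 and -2.43 on day 7. It fell by 1.64 (SE 0.26, limma adjusted p = 0.0429, 3.11-fold). BUB1B, a kinase of the spindle checkpoint, had -1.38, -0.77 and -0.75 on day 3 and -2.24, -2.94 and -2.56 on day 7. It fell by 1.61 (SE 0.26, adjusted p = 0.0429), with 2 of its 4 probes called and all 4 between -2.47 and -1.50.

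The change in both was smaller on slide 1 than on the others, 1.1 against 1.58 and 2.22 as the fall in CDC20, and 0.85 against 2.17 and 1.80 as the fall in BUB1B. BUB1B was well above background on all day 7 arrays and on no control array, while CDC20 was 0.65 above the controls on day 7 (limma adjusted p = 0.225). Both calls were kept in 3 of 12 fits that left out 1 array.

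Other division genes were called at some of their probes only. UBE2C, the ubiquitin-conjugating enzyme that works with the anaphase-promoting complex, was called at 2 overlapping probes of 5 (falls of 1.48 and 1.56) and all 5 lay between -1.56 and -1.11. RRM2, a subunit of the ribonucleotide reductase that supplies DNA building blocks, was called at 1 of 5 probes (a fall of 1.66), and SPAG5, a spindle protein, at 1 of 5 (a fall of 1.46). All 5 RRM2 probes lay between -1.66 and -1.29, and 4 of the SPAG5 probes between -1.70 and -1.46; the fifth SPAG5 probe was not well above background on any day 7 array.

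Of the mitosis genes 55 are on the array and 40 were measured. Of these 40, 37 had a change below 0, against 46.2% of all genes, with a median of -0.76. Genes that pass the filter through day 3 alone tend to count as lower, and those that pass through day 7 alone as higher. This limits the counts of every list here, and the members concerned were not counted. Arrays did not overlap in the lower direction for 22 of the 40 (13.2% of all genes), and 21 had an unadjusted p below 0.05 in that direction (7.09% of all genes). The median was -0.30, -0.97 and -0.81 within slides 1, 2 and 3, and 1.28, 0.79 and 0.72 against the controls on days 3, 5 and 7. Every class took part in these counts, but unevenly. Spindle motor and cytokinesis genes had a median of -0.38 with 3 of 11 lower at that p, against medians of -0.81 to -0.88 in the other classes. Members include the kinases AURKB (-1.40, adjusted p = 0.171) and CDK1 (-0.92, adjusted p = 0.303), the checkpoint kinase BUB1 (-1.48, adjusted p = 0.129), the condensin NCAPG (-0.93) and the proliferation marker MKI67 (-1.13, adjusted p = 0.171). WEE1, a kinase that holds back mitosis, was the only member whose arrays were all higher on day 7, with a change of 0.49 (adjusted p = 0.553).

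Replication genes gave smaller values. Of 21 measured, none was called by limma, and 6 had an unadjusted p below 0.05, all lower (7.09% of all genes). A change below 0 was found in 18 (46.2% of all genes), and the median was -0.35. The 7 licensing and helicase genes had a median of -0.57 and the 9 synthesis genes -0.16. MCM7, a subunit of the replicative helicase, had -0.15, -0.02 and 0.04 on day 3 and -0.74, -1.20 and -1.02 on day 7, a change of -0.94 (adjusted p = 0.102). TK1, which salvages thymidine, had a change of -0.83 (adjusted p = 0.159). Of 12 regulators of the G1 phase the median was 0.04, and CDKN1A, the p21 inhibitor of cyclin-dependent kinases, had 0.45, -0.41 and 0.20 on day 3 and -2.08, -1.29 and -1.47 on day 7, a change of -1.69 (SE 0.32, adjusted p = 0.0819).

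**Figure D3:**
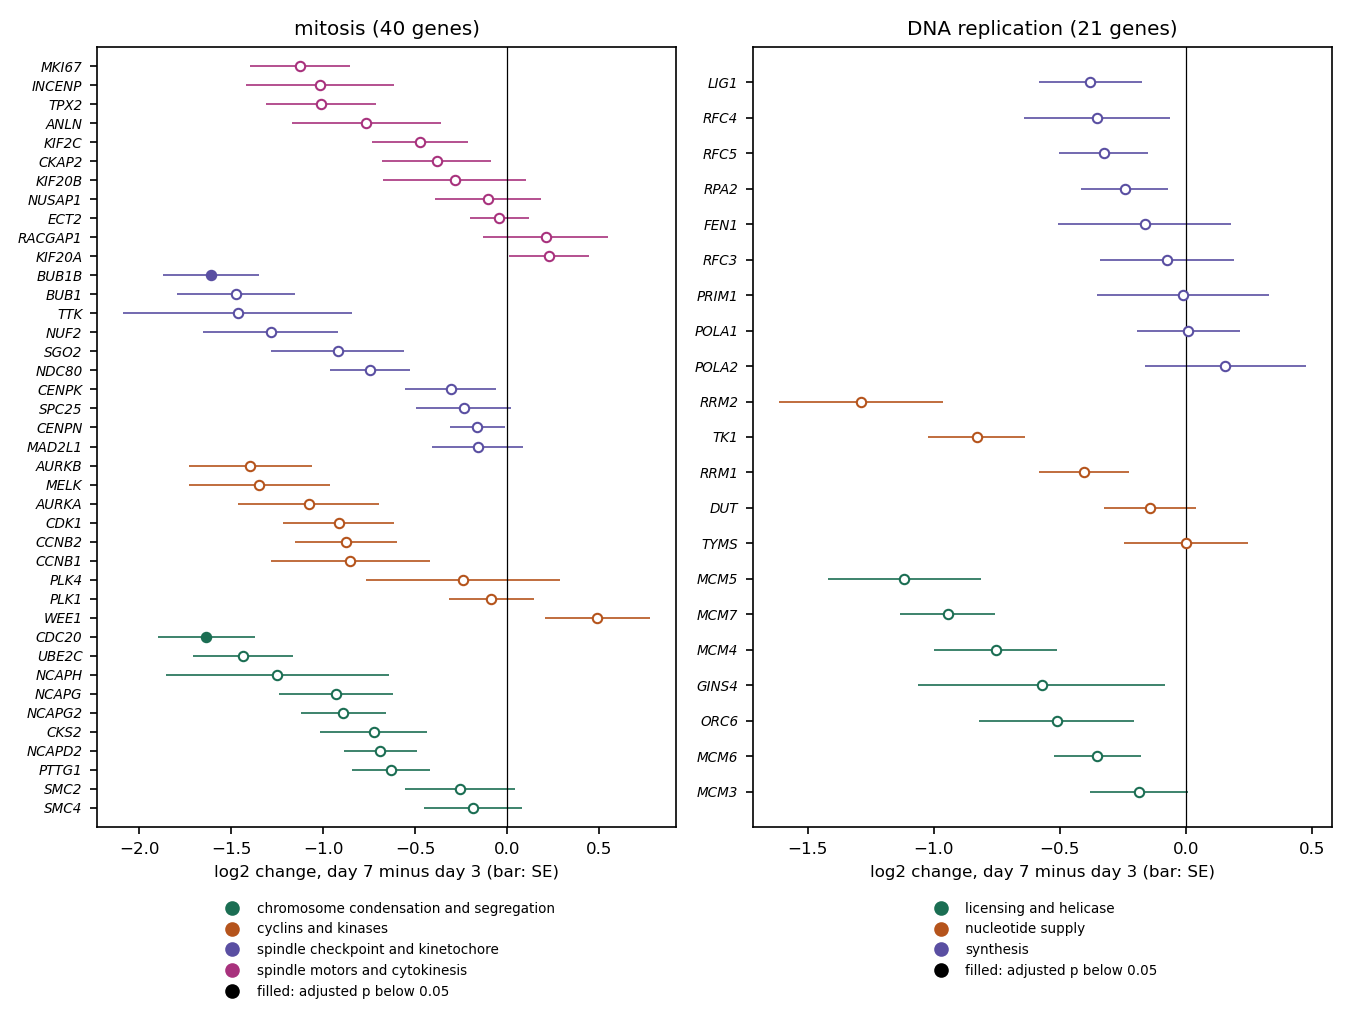
Log2 change from day 3 to day 7 (x axis, bar: SE) of the 40 mitosis genes and the 21 replication genes measured, coloured by role. Filled points passed the adjusted test (BUB1B and CDC20), and 37 of 40 mitosis genes lie left of 0.

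ESM1, endocan, a proteoglycan that endothelial cells secrete, fell at all 5 of its overlapping probes. At the probe with the highest mean the level was 2.96, 3.49 and 2.95 on day 3 and 2.0, 1.28 and 1.62 on day 7. The fall was 1.5 (SE 0.23, limma adjusted p = 0.0426, 2.83-fold), and 0.96, 2.21 and 1.33 within the slides. ESM1 was 1.92 above the controls on day 3 (adjusted p = 0.00068) and 0.42 above on day 7 (adjusted p = 0.373). Of the other 11 endothelial genes measured none was called. With ESM1 included, 10 of 12 lay below 0 (46.2% of all genes). At an unadjusted p below 0.05, 4 were lower (7.09% of all genes) and 0 higher (4.82%). Arrays did not overlap in the lower direction for 5 (13.2% of all genes) and in the higher for 0 (10.6%). For ANGPT2, a ligand of TEK, the change was -0.62 (adjusted p = 0.406), for MMRN2, of the endothelial matrix, -0.57 (adjusted p = 0.407), while the general markers PECAM1 and VWF had -0.52 and -0.29. The median of the 12 was -0.33 and its level was 1.16 to 1.40 on day 3 and 1.38, 0.98 and 0.26 on the day 7 arrays, lowest on replicate 3; its part in the ESM1 result was not tested.

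CD1D, which presents lipid antigens to natural killer T cells, had -0.44, -0.41 and -0.07 on day 3 and -1.43, -1.33 and -1.53 on day 7. It fell by 1.12 (SE 0.18, limma adjusted p = 0.0429, 2.17-fold), to a level 0.40 below the controls, a change of -0.40 (adjusted p = 0.264). Of 12 antigen presentation genes measured, 11 had a change below 0 (46.2% of all genes). The medians within slides were -0.41, -0.07 and -1.21, so the list's median of -0.52 came mostly from slide 3. CD74, the class II chaperone, had -0.56 (adjusted p = 0.732) and the immunoproteasome subunit PSMB8 -0.93 (adjusted p = 0.433). Of 21 lymphocyte markers on the array 11 were measured, with a median of -0.43. At an unadjusted p below 0.05, 5 were lower (7.09% of all genes), and none was called by limma. LCK and the chemokine CCL5, both among the 5, were not well above background on all day 7 arrays. They passed the filter through day 3, the day on which they were higher. LOC100346285, a gene the array describes as granzyme A-like in the T and NK cell list, had 3.27, 3.72 and 2.79 on day 3 and 1.93, 1.66 and 1.68 on day 7, a change of -1.50 (SE 0.31, adjusted p = 0.11). LCK, a kinase of T cells, was not well above background on day 7 and at least 3.18-fold higher on day 3 (adjusted p = 0.26).

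RAB13, a small GTPase that carries proteins to cell junctions, was called at 4 of its 5 probes, and the 5 gave changes of -1.02 to -0.91. Its called probes share 57 bases. At the brightest of these the level was 2.62, 2.78 and 3.07 on day 3 and 1.86, 1.93 and 1.68 on day 7, and RAB13 remained 0.77 above the controls on day 7 (adjusted p = 0.0234). PNP, which splits purine nucleosides, was called at 1 of 4 probes with a fall of 1.1, and an unnamed probe that shares 55 bases with it fell by 1.07. MEDAG, a gene of adipocyte differentiation, was called at 4 of 5 probes with falls of 1.17 to 1.60. On day 7, PNP and MEDAG at these probes lay within 0.45 of the controls.

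Of the higher calls, LRRC17, a secreted leucine-rich repeat protein, was the only gene called at its brightest probe. Its level was -1.53, -1.17 and -1.47 on day 3 and -0.21, 1.04 and 0.54 on day 7. It rose by 1.85 (SE 0.30, limma adjusted p = 0.0429, 3.60-fold) and by 1.32, 2.21 and 2.01 within the slides. The controls had a mean of -0.30 ± 0.36 (SD, n = 3): LRRC17 was 1.09 below them on day 3, a change of -1.09 (adjusted p = 0.0495), and 0.76 above them on day 7 (adjusted p = 0.21). The array describes this probe as a slit-like protein, and the RefSeq record it matches is LRRC17. The call was kept in 2 of 12 fits that left out 1 array.

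KCNJ13, the inward-rectifier potassium channel Kir7.1, was called at 1 of 3 probes. There it had -2.72, -2.39 and -2.01 on day 3 and -0.88, -0.93 and -0.30 on day 7, and it rose by 1.67 (SE 0.26, limma adjusted p = 0.0429). Its other probes gave 1.68 and 1.52 without a call. The controls lay at -0.27 ± 0.46 (SD, n = 3), so day 3 was the low group: KCNJ13 was 2.10 below the controls on day 3, a change of -2.10 (adjusted p = 0.000828), and on day 7 the change was -0.43 (adjusted p = 0.423).

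FGF12, an intracellular relative of the fibroblast growth factors that binds sodium channels, was called at 1 of 5 probes with a rise of 1.70 (SE 0.29, adjusted p = 0.0461), where 1 of 3 day 3 arrays was well above background. Its 5 probes gave 1.30 to 2.02. EGFLAM, pikachurin, a matrix protein that binds dystroglycan, rose at 1 of 5 probes by 1.12, and all 5 gave 0.73 to 1.16. ITGBL1, a secreted protein with integrin-like repeats, rose at 1 of 4 by 1.04, and all 4 gave 0.80 to 1.04. At these 3 probes the day 3 arrays were the low group, 1.59, 1.03 and 1.13 below the controls as changes of -1.59, -1.03 and -1.13 (adjusted p = 0.00748, 0.007 and 0.00309), and day 7 lay within 0.12 of the controls.

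Other probes that rose carry no gene, and some of them also differed from the controls on day 7. The 5 overlapping probes without a gene on chromosome 2, printed above by the first and last, rose by 1.25 to 1.51. The first had -1.87, -2.11 and -1.87 on day 3 and -0.37, -0.72 and -0.28 on day 7, with -1.35 ± 0.40 in the controls and -1.06 ± 0.09 on day 5 (SD, n = 3 each). It was 0.89 above the controls on day 7 (limma adjusted p = 0.0431), and over the 5 probes this difference was 0.51 to 0.98 with adjusted p from 0.0397 to 0.2, below 0.05 at 3 of 5. The 4 probes that the array describes as bone morphogenetic protein 7 (bmp7), which match no gene of the RefSeq table through that record, rose by 1.42 to 1.47. The printed probe had 0.40, 0.48 and 0.63 on day 3 and 1.97, 1.76 and 2.09 on day 7, a tight set in both groups. Its day 7 mean was 0.97 above the controls (limma adjusted p = 0.0576), and over the 4 probes the adjusted p was 0.0331 to 0.0576, below 0.05 at 2 of 4. One further probe without a gene, mapped to chromosome 14, rose by 1.80 (SE 0.29, adjusted p = 0.0429) and was 0.71 above the controls on day 7 (adjusted p = 0.23).

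Transporters and genes of the leptomeninges had the highest list medians among those with 15 or more measured genes, without a call in limma. Of 22 fibroblast and leptomeninges genes, 16 had a change above 0 (3829 of all 7123 genes). At an unadjusted p below 0.05, 7 were higher (4.82% of all genes) and none of 22 was lower (7.09%). The median was 0.35, with 0.17, 0.28 and 0.53 within the slides. SLC22A6, an organic anion transporter, had -0.94, -1.32 and -0.14 on day 3 and 1.55, 1.44 and 1.76 on day 7, a change of 2.38 (SE 0.42, adjusted p = 0.0555). SLC22A8, of the same family, had -0.81, -0.42 and 1.05 on day 3 and 3.01, 1.94 and 2.86 on day 7, a change of 2.67 (SE 0.65, adjusted p = 0.175).

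In both transporters the days did not overlap. IGFBP2, which binds insulin-like growth factors, had a change of 1.40 (SE 0.25, adjusted p = 0.0555), PTGDS, which makes prostaglandin D2, 1.08 (adjusted p = 0.134) and OGN, a small proteoglycan, 0.94 (adjusted p = 0.12). PTGDS had 8.65, 8.65 and 8.92 on day 3, a mean of 9.82 on day 7 with 9.61 as its lowest array, and a mean of 10.33 in the controls. The peptide transporter SLC15A2 had a change of 1.99 (SE 0.45, adjusted p = 0.147). Its controls were the low group, at -2.91, unlike those of SLC22A6, SLC22A8 and PTGDS. Against the controls, the median of the fibroblast and leptomeninges list was 0.27 on day 3, 0.29 on day 5 and 0.48 on day 7. The collagen COL1A1 had 0.01 (SE 0.23, adjusted p = 0.995) and a level 4.2 to 4.45 on all 6 arrays.

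Genes that set the tone of the vessel showed no call between the days. The median change of 30 contractile smooth muscle genes was 0.04, with 1 higher (4.82% of all genes) and 1 lower (7.09%) at an unadjusted p below 0.05. ACTA2, smooth muscle actin, had 7.16, 6.55 and 7.08 on day 3 and 6.84, 7.28 and 6.87 on day 7, a change of 0.07 (SE 0.25, adjusted p = 0.942). MYH11, smooth muscle myosin, had a change of 0.05 (SE 0.30). MYLK, the kinase that starts contraction by phosphorylating myosin light chain, had 0.49 (SE 0.17, adjusted p = 0.315), and DES, desmin, -0.87 (SE 0.25, adjusted p = 0.243), each without overlap. Of 14 vasoconstrictor genes none had an unadjusted p below 0.05: endothelin 1 (EDN1) had 0.07 (SE 0.25), its receptors EDNRA and EDNRB -0.05 (SE 0.15) and 0.09 (SE 0.33), and the serotonin receptor HTR2A -0.78 (SE 0.40, adjusted p = 0.496).

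Vasodilator genes numbered 21, with a median of 0.08. NOS3, the endothelial nitric oxide synthase, had -0.17 (SE 0.32), and BDKRB1, a bradykinin receptor, had 0.90, -1.36 and -0.35 on day 3 and -1.69, -1.93 and -3.15 on day 7, a change of -1.98 (SE 0.74, adjusted p = 0.353). Among 20 calcium sensitization genes, RND3, which restrains the RhoA pathway, had 3.69, 3.27 and 3.38 on day 3 and 4.65, 5.39 and 4.37 on day 7, a change of 1.36 (SE 0.35, adjusted p = 0.192). RHOA and ROCK1 had -0.36 and 0.33. Of 33 channel and calcium genes, 7 did not overlap in the higher direction (10.6% of all genes) and 3 in the lower (13.2% of all genes). Among the 7 were the ryanodine receptor RYR3 (0.55, adjusted p = 0.264) and the calcium-binding S100A1 (0.99, adjusted p = 0.305).

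**Figure D4:**
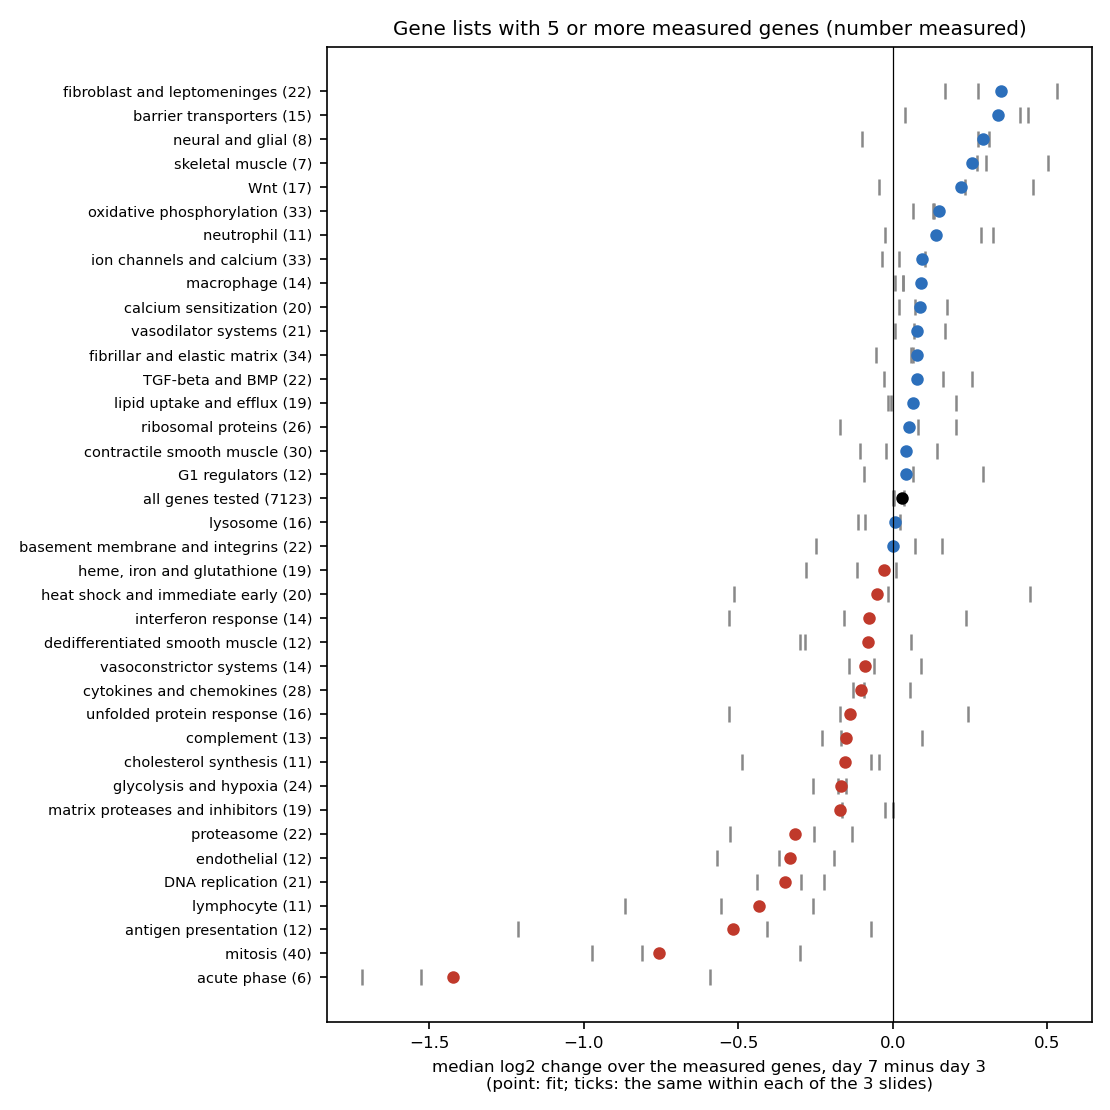
Median log2 change from day 3 to day 7 (x axis) for each gene list with 5 or more measured genes, with the number measured in brackets; ticks give the median within each of the 3 slides. The acute phase and mitosis lists lie farthest to the left and the fibroblast and leptomeninges list farthest to the right, while all genes tested lie at 0.03.

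Metabolic and protein turnover lists moved by little. All 22 proteasome genes had a change below 0 (46.2% of all genes), from -0.73 to -0.01 with a median of -0.32. Of them, 12 did not overlap in the lower direction (13.2% of all genes). PSMD4, a ubiquitin receptor of the proteasome, had -0.73 (SE 0.20, adjusted p = 0.227) and PSMB5, a catalytic subunit, -0.61 (adjusted p = 0.315); the list's median was -0.13, -0.26 and -0.53 within the slides. Of 24 glycolysis and hypoxia genes, 11 did not overlap in the lower direction (13.2% of all genes) and 2 in the higher (10.6%). LDHA, which makes lactate, had -1.03 (SE 0.21, adjusted p = 0.107), GAPDH -0.65 and ALDOA -0.61, and the glucose transporter SLC2A1 had 0.82 (adjusted p = 0.353). Among 33 genes of oxidative phosphorylation, 25 had a change above 0 (3829 of all 7123 genes), with a median of 0.15. COX7A1, the muscle form of a cytochrome oxidase subunit, had 2.28, 2.26 and 1.82 on day 3 and 3.15, 3.79 and 3.76 on day 7, a change of 1.45 (SE 0.29, adjusted p = 0.102). None of these was called by limma. At an unadjusted p below 0.05 the lists held 6, 7 and 0 genes lower (7.09% of all genes) and 0, 1 and 1 higher (4.82%).

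Macrophage, lysosome and interferon genes differed little between the days. The median change was 0.09 over 14 macrophage markers, 0.01 over 16 lysosome genes and -0.08 over 14 interferon genes, and 1.11, 0.57 and 1.35 against the controls on day 7. CD68 had -0.17 (SE 0.19, adjusted p = 0.793), with 0.96 to 1.25 on day 3 and 0.74 to 1.12 on day 7. Complement C3 had 0.88, -0.08 and 0.60 on day 3 and 2.07, 1.99 and 2.53 on day 7, a change of 1.73 (SE 0.39, adjusted p = 0.147). Osteopontin (SPP1) had 3.33, 4.47 and 6.43 on day 3 and 3.82, 3.33 and 3.18 on day 7, a change of -1.30 (SE 0.73, adjusted p = 0.536), so its day 3 arrays spread more than the difference. The probe described as heme oxygenase 1, which breaks down heme, had 0.55, 1.01 and 2.15 on day 3 and 0.26, 0.31 and 0.41 on day 7, a change of -0.91 (SE 0.37, adjusted p = 0.382). CRYBA4, a lens crystallin, had a change of -0.05 and remained at 1.88 to 2.68 on day 7, against a control mean of -2.22.

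The largest increases of all belonged to defensin genes, which were chosen here after their values were seen and were not called. LOC100009135, described as defensin NP-4, a peptide of neutrophil granules, had -2.01, -2.62 and -3.42 on day 3 and 4.25, 0.65 and 1.27 on day 7, a change of 4.74 (SE 1.02, adjusted p = 0.129). LOC100009136, corticostatin-6 of the same family, had a change of 4.39 (SE 0.83, adjusted p = 0.0794), with 6.25, 3.07 and 3.84 within the slides. All 3 day 7 arrays were above all day 3 arrays for both, and day 7 replicate 1 was the highest array of all 6. Replicate 1, the array on slide 1, was also the highest of its group in the controls and on days 3 and 5 for both. The controls of LOC100009135 had 0.69, -2.05 and -3.44, so control replicate 1 reached the level of day 7 replicate 2. Those of LOC100009136 had 0.40, -1.48 and -2.17.

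Related granule genes were also highest on replicate 1 among the day 7 arrays. LOC100009134, defensin NP-3a, had a change of 2.44, MCP2, a macrophage cationic peptide, 2.41, and BPI, which binds bacterial endotoxin, 2.60 with 0.40 on day 7 replicate 1 against -1.45 and -1.14. On day 3 BPI ran the other way, with -4.91, -2.92 and -2.16, and 2 of these 3 arrays were well above background. Its changes within slides 1, 2 and 3 were 5.31, 1.47 and 1.02. Defensin genes are close relatives, so their probes may share signal. The 11 measured neutrophil markers, BPI among them, had a median of 0.14, with 8 changes above 0 and 3 below. At an unadjusted p below 0.05, 3 were higher (4.82% of all genes) and 1 lower (7.09%). Arrays did not overlap in the higher direction for 4 (10.6% of all genes) and in the lower for 1 (13.2%). FPR1 had 1.43 (adjusted p = 0.257), MPO 0.51, S100A9 -0.27 and MMP9 fell. The red cell gene HBA had 4.24, 5.09 and 6.54 on day 3 and 6.81, 6.58 and 6.16 on day 7, a change of 1.23 (SE 0.48, adjusted p = 0.371), and the median change of the 4 erythroid genes within slides was 2.02, 1.2 and -0.06. The part of blood cells in these values was not tested.

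The remaining lists held no call in limma and lay near the median of all genes. They covered heme and iron handling, complement, collagens and elastic fibres, basement membrane, dedifferentiated smooth muscle, peripheral nerve, skeletal muscle, the TGF-beta and Wnt pathways, ribosomal proteins, the unfolded protein response, heat shock, and cholesterol and lipid handling. Their medians ran from -0.16 for cholesterol synthesis to 0.25 for skeletal muscle.

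Antibody transcripts differed between arrays of the same day as well as between days. The array has 198 tested probes described as antibody transcripts; they were gathered after the values were seen, and many share sequence. Their median level was -1.17, -2.69 and -0.56 on the day 3 arrays and -2.81, -2.50 and -3.49 on the day 7 arrays, and -3.30 to -3.74 in the controls. The median change was -1.89, but -1.84, 0.17 and -3.78 within slides 1, 2 and 3, so day 3 replicate 2 lay among the day 7 arrays. In the set, 112 probes were lower and 9 higher at an unadjusted p below 0.05, which 11.5% of all probes tested had in either direction. The 1 called probe, described as a heavy-chain variable domain, went the other way. It was not well above background on day 3 and at least 1.48-fold higher on day 7. The limma adjusted p of 0.0395 belongs to its fitted change, not to this bound.

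**Figure D5:**
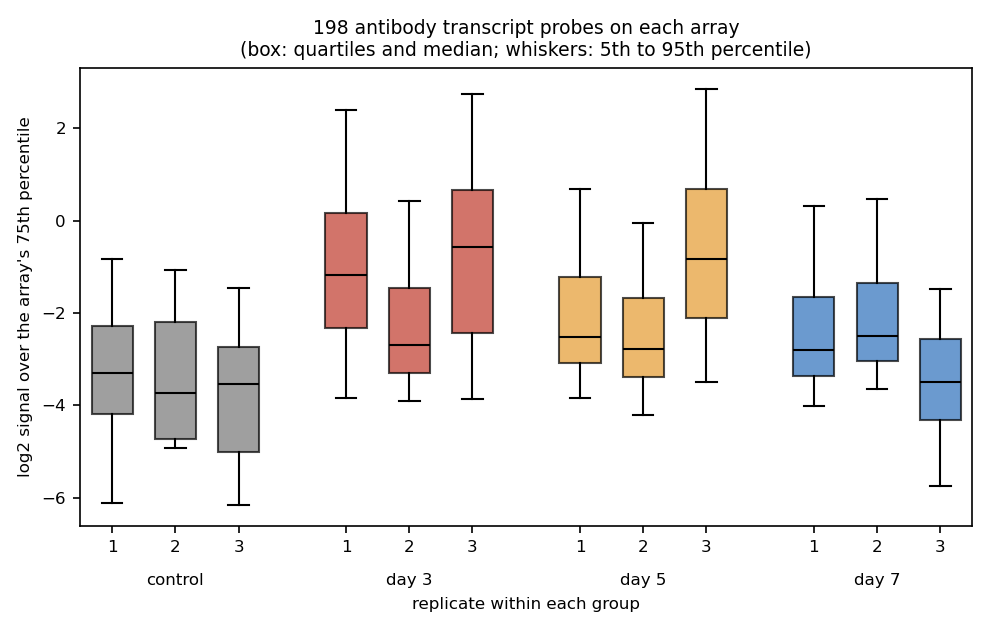
Levels of the 198 antibody transcript probes on each array (y axis, log2 signal over the array's 75th percentile; x axis, replicate within each group); boxes give quartiles and median, whiskers the 5th to 95th percentile. Day 3 replicates 1 and 3 and day 5 replicate 3 are high, with medians of -1.17, -0.56 and -0.83, and day 3 replicate 2 lies with the day 7 arrays.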

How the data were processed

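Each of the 12 arrays measured Cy3-labelled RNA of 1 basilar artery sample in 1 colour; the authors' Agilent Feature Extraction 9.5.1.1 (per the submitters' processing notes) made the deposited processed signal intensity, background-subtracted and detrended within each array per the file headers. Here that signal was divided by each array's 75th percentile over non-control spots and log2 was taken. Probes well above background on all 3 arrays of either group were tested with limma 3.58.1 (R 4.3.3) in 1 fit of 4 group means over all 12 arrays, two-sided, with no block, and p-values were adjusted by Benjamini-Hochberg over 25605 probes. Spots flagged as outliers were missing. Genes were named through the RefSeq table of assembly mOryCun1.1, names only: 22312 of 43623 probes carry 1 gene, 18 several and 21293 none. The deposited value table, the authors' processed values on an unstated scale (column medians 27.0), was an alternative; its log2 values correlated with the processed signal at 0.994 or more.

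Named are called genes without overlap between arrays, the leading members of each list and a fixed set of genes; further genes, such as the defensins, were chosen after their values were seen. The members and lists were chosen with earlier results of these data known, so lists are given as counts and medians with no test. On simulated data of 25605 probes with 200 changed, 51% of 2-fold and 85% of 4-fold changes were recovered, with 13 wrong calls. The simulated noise was normal and independent between probes and arrays, without slide effects or poor arrays. The real probes overlap and the real calls rest on single arrays, so these rates need not hold here. The number of arrays limits the precision: an exact permutation test of 3 against 3 cannot go below 0.1. Alternatives covered scaling, background, filters, weights, the slide and each array left out.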

Additional observations from a re-analysis of the deposited data

How the results depend on the processing

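The counts depend on the settings, and so does the balance of higher and lower calls. The probes called day 7 against day 3 numbered 46 (16 higher, 30 lower), and the genes called day 7 against day 3 numbered 8 (1 higher, 7 lower). With the slide as a replicate block, 3 probes (1 higher, 2 lower) and 1 gene (0 higher, 1 lower) were called; same-numbered day 3 and day 7 arrays had deviations that correlated at 0.0999, -0.146 and 0.00613, so the numbers were not treated as pairs. With only the 6 arrays of both days, 28 probes (14 higher, 14 lower) and 5 genes (4 higher, 1 lower) were called, and 11 of the 28 were among the 46. Array weights gave 259 probes (128 higher, 131 lower) and 89 genes (33 higher, 56 lower). The authors' value table gave 27 probes (4 higher, 23 lower) and 0 genes higher, so that 14.8% of its calls were higher against 34.8%. The cause of these differences was not tested. Testing only probes well above background on all 6 arrays gave 13 genes (4 higher), and testing all probes gave 3 probes (0 higher, 3 lower) and 1 gene (0 higher, 1 lower), the latter over more tests. Normexp background gave 16 genes (4 higher, 12 lower), averaging a gene's probes 19 genes (5 higher, 14 lower), and counting a gene by any called probe, an alternative chosen after seeing the data, 19 genes. Leaving out 1 array at a time gave 2 to 72 probes (0 to 30 higher, 2 to 42 lower) and 1 to 18 genes (0 to 6 higher, 1 to 14 lower), lowest without day 7 replicate 2 or 3 and highest without control replicate 2. A probe not well above background on any array of a group gives a bound only.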
